A study of Homo sapiens with 6 samples.

Results

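Growth factor receptor tyrosine kinases were examined after knockdown of the RNA methyltransferase METTL16 in PANC-1, a cell line established from a human ductal adenocarcinoma of the pancreas. The group was chosen by gene symbol and held 10 of the 58735 genes in the table: EGFR, ERBB2, ERBB3, MET, MST1R, AXL, FGFR1, FGFR4, IGF1R and INSR. Of the 6 samples, 3 received a control siRNA (si-NC) and 3 an siRNA that targets METTL16 (si-METTL16). All 6 came from the same line, grown in serum, and the methods call them biological triplicates. The methods describe the transfection of the sequenced cells as stable. Elsewhere they give shRNA and puromycin selection for stable knockdown cells, and whether the sequenced cells went through that selection was not given. Another label of the control samples reads WT, and the time from transfection to harvest was not given in the sources used here. Total counts per sample ranged from 15725298 to 18054436.

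METTL16 itself gave 1546, 1641 and 1764 counts in si-NC replicates 1, 2 and 3 and 571, 528 and 627 counts in the si-METTL16 replicates. Its log2 fold change was -1.48 ± 0.07 (SE, n = 3 per group, edgeR adjusted p = 8.3e-05), leaving 35.9% of the si-NC level.

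A receptor tyrosine kinase spans the cell membrane. A growth factor bound outside brings receptors together, and the kinases inside phosphorylate each other and recruit adaptors that feed the RAS-ERK and PI3K-AKT pathways. In pancreatic carcinoma cells, EGFR and its relatives are known for transmitting growth signals, MET and AXL for motility and invasion, and the insulin-like receptors for survival signalling.

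The sequences below place the knockdown reagent beside the receptors. The supplementary primer list of the study holds 3 siRNAs against METTL16 and does not say which was sequenced here, so all are shown as the 19 target bases in the METTL16 transcript, 5′ to 3′. Capitals mark the bases that pair with the guide's seed, positions 2 to 8 counted from 1 at the guide's 5′ end.
siRNA 1: ccttgagactcAACTATAt
siRNA 2: ccgcctagttcTGTTAATa
siRNA 3: ccaccaagtaaGCGAAGAa
All 19 bases of each were found in the METTL16 MANE transcript (GENCODE v44), whereas the longest run that any receptor shared with any siRNA was 6 to 9 bases. Seed matches in the receptors' MANE 3′ UTRs numbered 4 and fell in 3 genes. EGFR held 1 match for siRNA 1 and 1 for siRNA 2, IGF1R held 1 for siRNA 1, and MET held 1 for siRNA 2. AXL and ERBB2 held none. Among 12379 tested genes with a MANE 3′ UTR, 11.4%, 20.4% and 1.49% held a match for siRNAs 1, 2 and 3, and a match is a description of the letters only.

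AXL, EGFR and MET were the most abundant members. Their promoter windows are shown because most of the summed FPKM of the 10 members came from these genes. Each is the 250 bases before the RefSeq transcript start (GRCh38.p14, plus strand), with GC boxes (GGGCGG or its reverse complement CCGCCC) in capitals.
AXL, chr19:41218973-41219222: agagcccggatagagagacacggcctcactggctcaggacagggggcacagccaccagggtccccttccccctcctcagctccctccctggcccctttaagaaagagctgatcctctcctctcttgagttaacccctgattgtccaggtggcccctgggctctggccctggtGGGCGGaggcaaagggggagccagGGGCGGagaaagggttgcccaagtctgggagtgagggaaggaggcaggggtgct
MET, chr7:116671946-116672195: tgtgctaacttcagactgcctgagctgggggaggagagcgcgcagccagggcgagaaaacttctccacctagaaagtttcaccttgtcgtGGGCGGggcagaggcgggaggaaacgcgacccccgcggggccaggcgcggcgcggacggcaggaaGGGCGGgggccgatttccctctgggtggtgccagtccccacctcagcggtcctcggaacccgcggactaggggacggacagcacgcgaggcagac
EGFR, chr7:55018767-55019016: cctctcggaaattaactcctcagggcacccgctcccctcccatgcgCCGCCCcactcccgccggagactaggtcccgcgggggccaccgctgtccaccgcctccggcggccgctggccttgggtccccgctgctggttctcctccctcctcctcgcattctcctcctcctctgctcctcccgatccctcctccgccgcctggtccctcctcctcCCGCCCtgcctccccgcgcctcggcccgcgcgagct
Each of these windows held 2 GC boxes and no TATAAA in either strand. A window was found for 8 of the 10 members, all but ERBB3 and FGFR1. Of these 8, 7 held a GC box, compared with 42.6% of 35116 gene windows of the same length. None held TATAAA (10.7% of all windows) or the TEAD motif GGAATG (11.9%), and 1, that of ERBB2, held the AP-1 motif TGANTCA (6.57%), both strands being searched. Only 1 start per gene was searched, and the ERBB2 window lay within the locus of PGAP3, which overlaps the start of ERBB2 in the table. Other ERBB2 starts were not examined. GC content was 64.4% in the AXL window, 68.4% in the MET window and 73.6% in the EGFR window, against a median of 58.0% over all windows. The 35116 windows were not limited to the 15089 tested genes, whereas all 10 receptors were tested. Windows of tested genes alone were not compared.

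Comparison of the groups showed that AXL and MET rose and ERBB2 fell after METTL16 knockdown, while the other 7 receptors did not pass the test. All 10 receptors passed the filter on low counts. Against these 3 of 10 called receptors, 35.9% of the 15089 tested genes passed at an adjusted p under 0.05 (edgeR quasi-likelihood test, Benjamini-Hochberg). The 2 that rose are set against 18.4% of all tested genes called higher, and the 1 that fell against 17.5% called lower. The groups did not overlap in CPM (counts scaled to a common total) for 4 receptors, AXL, MET, ERBB2 and INSR, compared with 50.9% of tested genes. The share of receptors called was thus close to the background of a transcriptome in which many genes moved. The median log2 fold change of the 10 was 0.10, against 0.00 for all tested genes, and the median absolute value was 0.30, against 0.33.

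**Figure D1:**
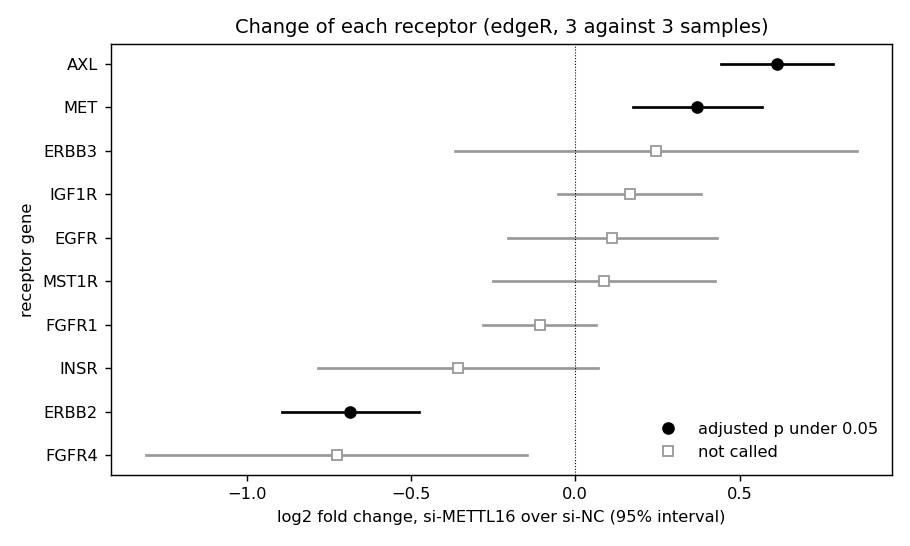
Log2 fold change of each receptor (si-METTL16 over si-NC, horizontal axis) with its 95% interval from edgeR, 3 samples per group. Filled circles are receptors with an adjusted p under 0.05 and open squares are those not called: AXL (0.61) and MET (0.37) lie above 0, ERBB2 (-0.68) lies below it, and the widest intervals belong to the low receptors ERBB3 and FGFR4.

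AXL, a receptor of the TAM family that binds GAS6, had the highest FPKM of the 10 in every sample. FPKM is the count scaled by gene length and by library total. AXL (ENSG00000167601, chr19:41219203-41261766, GRCh38, plus strand, coordinates of the deposited table as for all genes here) measured 26.0, 22.1 and 24.9 FPKM in si-NC replicates 1, 2 and 3. The si-METTL16 replicates measured 37.8, 35.6 and 36.4 FPKM, so that all 3 lay above every si-NC sample. The log2 fold change was 0.61 ± 0.07 (SE, n = 3 per group, 95% interval 0.44 to 0.78, adjusted p = 0.00091), a level 1.53 times that of si-NC. Leaving out each sample in turn gave log2 fold changes between 0.54 and 0.66. In bulk RNA, more cells with the transcript and more transcript per cell cannot be told apart.

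MET, the receptor for hepatocyte growth factor (HGF), rose by a smaller amount. MET (ENSG00000105976, chr7:116672390-116798386, plus strand) measured 12.9, 13.5 and 14.3 FPKM in the si-NC replicates and 18.8, 17.3 and 15.7 FPKM in the si-METTL16 replicates. The groups did not overlap, and si-METTL16 replicate 3 lay nearest to the control range. The log2 fold change was 0.37 ± 0.08 (SE, n = 3 per group, 95% interval 0.18 to 0.57, adjusted p = 0.012). MET is thus called at the threshold of 0.05 and not at 0.01. MST1R, also called RON, is its nearest relative and binds macrophage-stimulating protein. MST1R (ENSG00000164078, chr3:49887002-49903873, minus strand) measured 0.793, 0.988 and 0.770 FPKM in si-NC and 0.796, 0.977 and 0.899 FPKM in si-METTL16 replicates. These ranges overlapped almost entirely, with a log2 fold change of 0.09 ± 0.14 (SE, n = 3 per group, 95% interval -0.25 to 0.43, adjusted p = 0.66). MST1R was the only receptor whose MANE transcript held TACAGAGAA, a nonamer that METTL16 is known to methylate in its RNA substrates. It held 1 match, and 3.97% of 12383 tested transcripts held the nonamer. Only this exact nonamer was searched, and RNA structure was not considered.

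**Figure D2:**
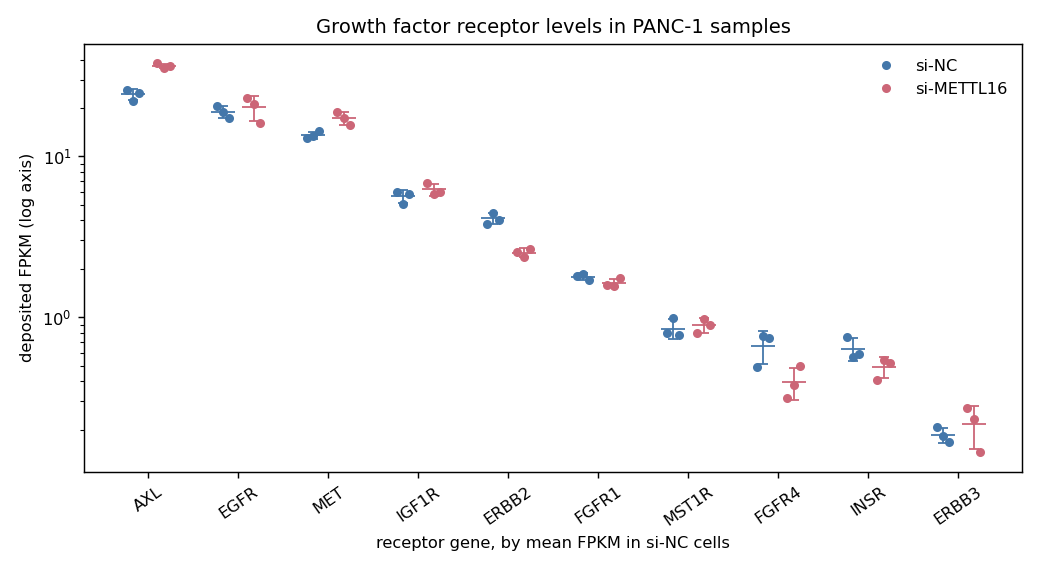
FPKM of the 10 receptors in each sample (log axis), ordered by mean level in si-NC cells, with si-NC in blue and si-METTL16 in red. Points are samples, horizontal lines are group means and vertical bars are the SD (n = 3): the si-METTL16 points lie wholly above si-NC for AXL and MET and wholly below for ERBB2 and INSR.

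ERBB2, also called HER2, is the member of the EGFR family that binds no ligand of its own and acts as partner to the others. ERBB2 (ENSG00000141736, chr17:39687914-39730426, plus strand) measured 3.82, 4.47 and 4.04 FPKM in the si-NC replicates. It measured 2.54, 2.35 and 2.67 FPKM in the si-METTL16 replicates, all below the lowest si-NC sample. The log2 fold change was -0.68 ± 0.09 (SE, n = 3 per group, 95% interval -0.89 to -0.48, adjusted p = 0.0013), which left 62.2% of the si-NC level. Without each sample in turn it ranged from -0.74 to -0.63.

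The 3′ end of ERBB2 overlaps MIEN1, which lies on the opposite strand. The shared exons cover 163 bases, 3.58% of the ERBB2 MANE exons, and whether counting used strand was not given in the sources used here. The counted exons were longer: the length implied by count and FPKM was 17557 bases for ERBB2, against 4557 for MANE. The overlap of the counted exons with MIEN1 or PGAP3 was not measured and may be larger. MIEN1 gave 829, 843 and 896 counts in si-NC and 331, 518 and 423 counts in si-METTL16 samples, with a log2 fold change of -0.96 ± 0.17 (SE, n = 3 per group, adjusted p = 0.0053). PGAP3, whose locus overlaps the start of the ERBB2 locus in the table but shares no base with its MANE exons, gave -0.23 on the log2 scale (adjusted p = 0.19), and GRB7 gave between 2 and 10 counts and was not tested. These neighbours were chosen after their values were seen, and the part of reads shared with MIEN1 or PGAP3 in the ERBB2 result was not tested.

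EGFR, the receptor for epidermal growth factor and related ligands, had the largest counts of the 10. EGFR (ENSG00000146648, chr7:55019021-55211628, plus strand) measured 20.5, 18.9 and 17.4 FPKM in si-NC and 23.1, 21.2 and 16.1 FPKM in si-METTL16 replicates. The si-METTL16 samples held both the highest and the lowest of the 6 values. The log2 fold change was 0.11 ± 0.14 (SE, n = 3 per group, 95% interval -0.20 to 0.43, adjusted p = 0.55), and without si-METTL16 replicate 1 it was -0.0035 (adjusted p = 0.99). ERBB3, a kinase-impaired receptor for neuregulins, was the lowest of the 10 in FPKM. ERBB3 (ENSG00000065361, chr12:56076799-56103505, plus strand) measured 0.206, 0.182 and 0.167 FPKM in si-NC and 0.272, 0.233 and 0.145 FPKM in si-METTL16 replicates. Its counts ran from 52 to 90 per sample, and the interval of its log2 fold change was correspondingly wide (0.25, 95% interval -0.37 to 0.86, adjusted p = 0.50). ERBB4, the remaining member of the family, did not pass the filter on low counts.

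FGFR1 and FGFR4 are receptors for fibroblast growth factors. FGFR1 (ENSG00000077782) measured 1.80, 1.86 and 1.70 FPKM in si-NC and 1.59, 1.57 and 1.75 FPKM in si-METTL16 replicates, and the ranges overlapped. Its interval was narrow and spanned 0 (log2 fold change -0.11, 95% interval -0.28 to 0.06, adjusted p = 0.29). FGFR4 (ENSG00000160867, chr5:177086886-177098144, plus strand) measured 0.487, 0.765 and 0.741 FPKM in si-NC and 0.314, 0.378 and 0.494 FPKM in si-METTL16 replicates. Only si-NC replicate 1 and si-METTL16 replicate 3 crossed, at 80 and 87 counts. The log2 fold change of FGFR4, -0.73 ± 0.25 (SE, n = 3 per group, 95% interval -1.31 to -0.15), did not pass the threshold (adjusted p = 0.056). Without si-NC replicate 1 it was -0.91 (adjusted p = 0.029), and without si-METTL16 replicate 3 it was -0.92 (adjusted p = 0.045), so the FGFR4 call depends on those samples.

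IGF1R and INSR, the receptors for insulin-like growth factors and for insulin, form homodimers and hybrids with each other. IGF1R (ENSG00000140443, chr15:98648539-98964530, plus strand) measured 5.98, 5.05 and 5.86 FPKM in si-NC and 6.83, 5.83 and 6.02 FPKM in si-METTL16 replicates. The ranges overlapped, with a log2 fold change of 0.17 ± 0.09 (SE, n = 3 per group, 95% interval -0.05 to 0.38, adjusted p = 0.20). INSR (ENSG00000171105, chr19:7112255-7294034, minus strand) measured 0.758, 0.569 and 0.588 FPKM in si-NC and 0.407, 0.543 and 0.522 FPKM in si-METTL16 replicates. All 3 si-METTL16 values lay below the si-NC range, but by a small margin. The log2 fold change of -0.36 ± 0.18 (SE, n = 3 per group, 95% interval -0.78 to 0.07) did not pass (adjusted p = 0.17).

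The order of the levels in FPKM in si-NC cells was AXL (24.3), EGFR (18.9), MET (13.6), IGF1R (5.63), ERBB2 (4.11), FGFR1 (1.79), MST1R (0.850), FGFR4 (0.664), INSR (0.638) and ERBB3 (0.185). Each neighbouring pair had separate ranges over the 3 samples except FGFR4 and INSR. In si-METTL16 cells the order began with AXL (36.6), EGFR (20.1) and MET (17.3), and the ranges of EGFR and MET overlapped there. INSR (0.491) and FGFR4 (0.395) stood in the other order but overlapped again. The summed FPKM of the 10 receptors was 73.2, 68.3 and 70.4 in si-NC and 92.5, 86.1 and 80.7 in si-METTL16 replicates. AXL, EGFR and MET together made up 79.7% to 81.1% of that sum in si-NC and 84.5% to 86.2% in si-METTL16 samples. The ERBB2 share was 5.22% to 6.54% in si-NC and 2.73% to 3.31% in si-METTL16 samples.

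The middle of this order depends on the gene length used. The length implied by count and FPKM was 1.31 times the MANE transcript for INSR and 7.31 times for FGFR1 (41640 against 5697 bases). Per kilobase of MANE transcript, the si-NC levels were 36.6 for AXL, 32.0 for EGFR, 20.6 for MET, 15.8 for ERBB2, 13.1 for FGFR1 and 11.9 for IGF1R (CPM per kilobase). AXL and EGFR then overlapped, as did FGFR1 and IGF1R. On that scale ERBB2 stood above IGF1R and FGFR1 in si-NC cells (15.8) and below both in si-METTL16 cells (9.71). Fold changes between the groups do not depend on the length.

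Ratios of related receptors within each sample cancel the depth of the sample. They are ratios of FPKM, so their size depends on the gene lengths used, while their differences between the groups do not. Per kilobase of MANE transcript, EGFR stood at 32.0 and ERBB2 at 15.8 in si-NC cells. EGFR over ERBB2, the ratio of the ligand-binding receptor to its partner, was 5.36, 4.22 and 4.30 in si-NC and 9.10, 9.02 and 6.04 in si-METTL16 replicates. All 3 si-METTL16 ratios were higher, with a difference of 0.78 on the log2 scale (two-sided exact permutation test, p = 0.1, the smallest that 3 against 3 samples allow; adjusted over 6 pairs, p = 0.2). ERBB2 over ERBB3 was 18.5, 24.6 and 24.2 in si-NC and 9.33, 10.1 and 18.5 in si-METTL16 replicates. These groups were separate by the smallest margin, 18.51 against 18.46, with a log2 difference of -0.89 (exact permutation p = 0.1, adjusted p = 0.2). IGF1R over INSR was 7.90, 8.89 and 9.96 in si-NC and 16.8, 10.7 and 11.5 in si-METTL16 replicates, again separate (log2 difference 0.52, exact permutation p = 0.1, adjusted p = 0.2). The other 3 pairs overlapped between the groups. Their log2 differences were 0.62 for FGFR1 over FGFR4, 0.28 for MET over MST1R and -0.10 for EGFR over ERBB3, with exact permutation p of 0.2, 0.3 and 0.4. No pair could reach 0.05 in this design.

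**Figure D3:**
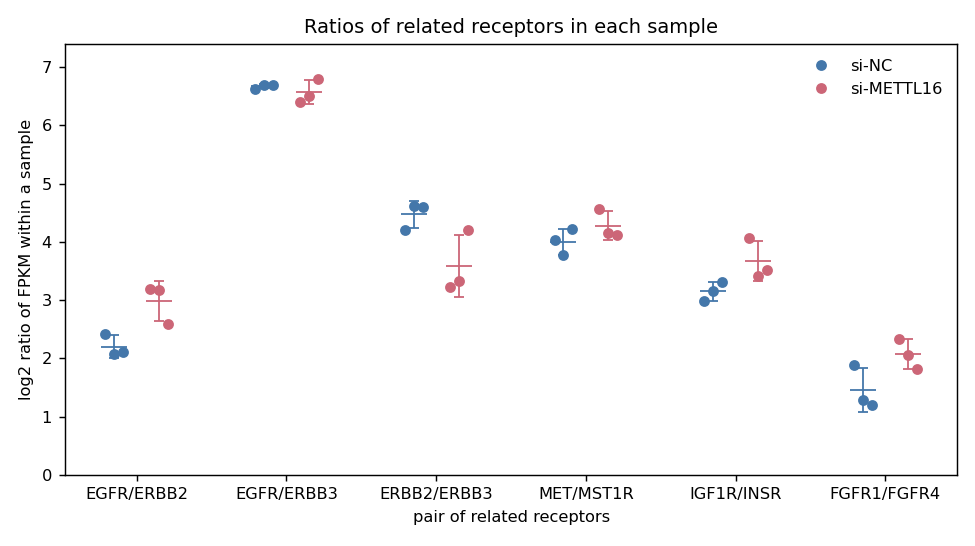
Log2 ratio of FPKM within each sample for 6 pairs of related receptors, with si-NC in blue and si-METTL16 in red. Points are samples, horizontal lines are means and vertical bars are the SD (n = 3): the groups are separate for EGFR/ERBB2, ERBB2/ERBB3 and IGF1R/INSR and overlap for the other 3 pairs.

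The members also differed in how they varied over the 6 samples. Likeness was measured as the root mean square distance between profiles of log2 CPM centred on each gene's mean, which takes in both the group difference and the spread within groups. EGFR and ERBB3 were nearest to each other at 0.12, each being lowest in si-METTL16 replicate 3. MET and IGF1R were nearest to each other at 0.14, MST1R and FGFR1 at 0.16, and ERBB2 and FGFR4 at 0.23. AXL lay nearest to MET at 0.16, and the farthest pair was AXL and FGFR4 at 0.74.

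Other receptor tyrosine kinases changed in both directions. Of 48 listed, 24 were tested, and 7 rose and 6 fell (54.2% called, against 35.9% of all tested genes, with a median log2 fold change of 0.03). MERTK, the TAM receptor that clears apoptotic cells, measured 3.07, 3.22 and 3.11 FPKM in si-NC and 7.66, 6.83 and 6.54 FPKM in si-METTL16 replicates. It rose by 1.18 ± 0.09 on the log2 scale (SE, n = 3 per group, adjusted p = 0.00018), in the same direction as AXL, while TYRO3, the remaining TAM receptor, fell (-0.51). TYRO3 was named after its value was seen. FGFR2, a relative of FGFR1 and FGFR4, rose by 0.95 ± 0.12 (adjusted p = 0.0011), from a mean of 0.763 to 1.45 FPKM. Among called genes of the list, the ephrin receptors EPHB3 and EPHA10 had the lowest log2 fold changes, -1.11 (adjusted p = 0.015) and -0.81 (adjusted p = 0.034). EPHB3 lost its call without si-NC replicate 2 (-0.98, adjusted p = 0.053), si-METTL16 replicate 2 (-0.995, adjusted p = 0.052) or si-METTL16 replicate 3 (-0.99, adjusted p = 0.051). EPHA10 lost it without si-NC replicate 2 (-0.66, adjusted p = 0.11), si-NC replicate 3 (-0.83, adjusted p = 0.081), si-METTL16 replicate 2 (-0.69, adjusted p = 0.098) or si-METTL16 replicate 3 (-0.82, adjusted p = 0.082). Without si-NC replicate 2, 8 of 25 tested genes of the list were called. In that fit 4517 of all 15461 tested genes were called. Over the fits that left out 1 sample, 8 to 13 of the list were called. With all 6 samples and the members included, 16 of 34 tested receptor tyrosine kinases were called (47.1%), 9 higher and 7 lower. Of all tested genes, 18.4% were called higher and 17.5% lower.

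**Figure D4:**
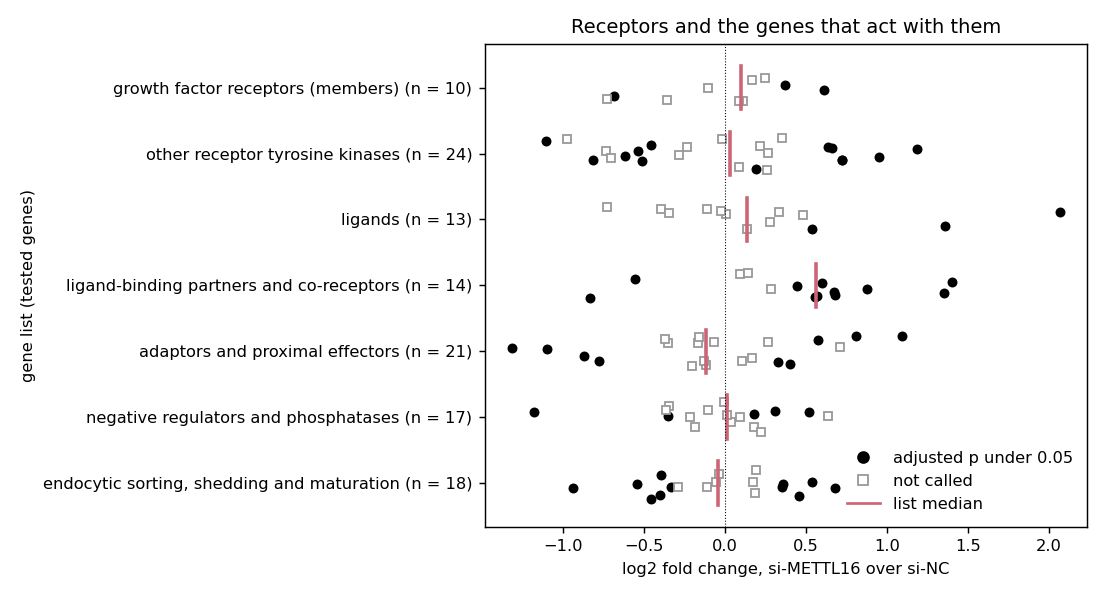
Log2 fold change (si-METTL16 over si-NC) of every tested gene of the receptor group and of 6 lists of genes that act with it. Filled circles are genes with an adjusted p under 0.05, open squares are genes not called and red lines are list medians: EREG (2.07) is the highest point, and the ligand-binding partners have the highest median (0.56).

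Among the ligands, 3 that bind EGFR rose and none fell. Of 23 listed, 13 were tested, and 3 rose (23.1% called, against 35.9% of all tested genes, median log2 fold change 0.14). EREG, which encodes epiregulin, measured 4.53, 5.22 and 4.90 FPKM in si-NC and 23.0, 18.7 and 18.9 FPKM in si-METTL16 replicates, a log2 fold change of 2.07 ± 0.11 (SE, n = 3 per group, adjusted p = 9.2e-05). AREG, which encodes amphiregulin, measured 1.76, 1.67 and 1.15 FPKM in si-NC and 4.23, 4.36 and 2.97 FPKM in si-METTL16 replicates, a log2 fold change of 1.36 ± 0.23 (adjusted p = 0.0043). TGFA, which encodes transforming growth factor alpha, rose by 0.54 ± 0.16 (adjusted p = 0.034). The TGFA call held in 1 of 6 fits that left out a sample and was lost without si-NC replicate 1 (0.51, adjusted p = 0.088), si-NC replicate 2 (0.45, adjusted p = 0.10) or when any si-METTL16 replicate was left out (adjusted p between 0.063 and 0.091). EREG, AREG and TGFA thus rose while EGFR itself did not pass the test.

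The other ligands at a mean of at least 1 FPKM did not pass. HBEGF, a further EGFR ligand, gave 0.48 on the log2 scale (adjusted p = 0.20), and 0.83 without si-NC replicate 3 (adjusted p = 0.025). The neuregulins NRG1 and NRG2, ligands of ERBB3, had log2 fold changes of 0.33 (adjusted p = 0.55) and 0.14 (adjusted p = 0.47), and NRG1 gave -0.03 without si-NC replicate 2. GAS6, the ligand of AXL, was at 2.39 ± 0.05 FPKM in si-NC and 2.37 ± 0.14 FPKM in si-METTL16 cells (SD, n = 3 each), a log2 difference of 0.01 (adjusted p = 0.95). PROS1, which encodes protein S, a ligand of MERTK and TYRO3, had -0.35 (adjusted p = 0.21), and -0.13 without si-METTL16 replicate 2. FGF2 had -0.11 (adjusted p = 0.38). IGF2 had -0.73 (adjusted p = 0.19), and -0.37 without si-METTL16 replicate 1. HGF, EGF, IGF1 and INS were among the 10 ligands too low to test, none of which exceeded 15 counts in any sample.

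Of 18 listed ligand-binding partners and co-receptors, 14 were tested, and 9 rose and 2 fell (78.6% called, against 35.9% of all tested genes, with a median log2 fold change of 0.56 against 0.00). Without si-NC replicate 2, si-NC replicate 3 or si-METTL16 replicate 2, 8 of 14 were called, 7 higher and 1 lower. Of all tested genes, 4517 of 15461, 4159 of 15448 and 4344 of 15488 were called in these fits. SDC4, a heparan sulphate proteoglycan that presents fibroblast growth factors, measured 24.3, 25.8 and 24.2 FPKM in si-NC and 61.9, 66.2 and 58.4 FPKM in si-METTL16 replicates, a log2 fold change of 1.35 ± 0.07 (SE, n = 3 per group, adjusted p = 9.2e-05). IGF2R, which takes up IGF2 without kinase signalling, measured 17.9, 16.1 and 17.4 FPKM in si-NC and 9.54, 9.62 and 9.20 FPKM in si-METTL16 replicates. It fell by 0.84 ± 0.06 on the log2 scale (adjusted p = 0.00016). NRP2, a neuropilin co-receptor, rose by 1.40 ± 0.34 (adjusted p = 0.018) from 0.123 to 0.320 FPKM. The NRP2 call was lost without si-NC replicate 2 (1.36, adjusted p = 0.055), si-NC replicate 3 (1.28, adjusted p = 0.064), si-METTL16 replicate 2 (1.15, adjusted p = 0.059) or si-METTL16 replicate 3 (1.29, adjusted p = 0.055). IGFBP7, a low-affinity binder of insulin-like growth factors, fell by 0.55 ± 0.17 (adjusted p = 0.043). The IGFBP7 call was lost when any si-NC replicate was left out (adjusted p between 0.054 and 0.11), without si-METTL16 replicate 1 (adjusted p = 0.11) and without si-METTL16 replicate 2 (adjusted p = 0.090).

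Adaptors and proximal effectors moved both ways. Of 23 listed, 21 were tested, and 5 rose and 4 fell (42.9% called, against 35.9% of all tested genes, median log2 fold change -0.12). PTPN11, the phosphatase SHP2 that carries signal from receptors to RAS, rose by 0.81 ± 0.06 (SE, n = 3 per group, adjusted p = 0.00016), from 23.1 ± 1.03 to 39.8 ± 0.985 FPKM (SD). SOS1, the exchange factor that loads RAS with GTP, measured 9.0, 7.96 and 8.30 FPKM in si-NC and 3.64, 3.69 and 4.26 FPKM in si-METTL16 replicates, a log2 fold change of -1.10 ± 0.09 (adjusted p = 0.00021). IRS2, an adaptor of IGF1R and INSR, rose by 1.09 ± 0.19 (adjusted p = 0.0042). FRS3, an adaptor of fibroblast growth factor receptors, fell by 1.31 ± 0.30 (adjusted p = 0.014), from 37 to 64 counts per si-NC sample to 14 to 25 per si-METTL16 sample.

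Among 18 listed negative regulators and phosphatases, 17 were tested, and 3 rose and 2 fell. The called share was 29.4%, against 35.9% of all tested genes, with a median log2 fold change of 0.01. SOCS3 and SOCS1, suppressors of cytokine signalling, moved in opposite directions, SOCS3 by 0.52 ± 0.10 (SE, n = 3 per group, adjusted p = 0.0058) and SOCS1 by -1.18 ± 0.26 (adjusted p = 0.011). SOCS5, of the same family and known to target EGFR for degradation, fell by 0.35 ± 0.07 (adjusted p = 0.010). PTPRF, the receptor-type phosphatase LAR, rose by 0.31 ± 0.06 (adjusted p = 0.0080).

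Genes of endocytic sorting, shedding and maturation were all tested, and 5 of 18 rose and 6 fell. The called share was 61.1%, against 35.9% of all tested genes, with a median log2 fold change of -0.05. FURIN, the convertase that cleaves the precursors of MET, IGF1R and INSR, measured 45.7, 34.6 and 45.0 FPKM in si-NC and 22.3, 19.6 and 22.6 FPKM in si-METTL16 replicates. It fell by 0.94 ± 0.12 on the log2 scale (SE, n = 3 per group, adjusted p = 0.0011), and the related convertase PCSK6 fell by 0.54 ± 0.11 (adjusted p = 0.010). ADAM9, a membrane protease of the shedding family, rose by 0.68 ± 0.07 (adjusted p = 0.00069), from 21.8 to 34.3 FPKM. AP2M1, a subunit of the clathrin adaptor, rose by 0.54 ± 0.10 (adjusted p = 0.0049).

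Markers of the labelled pancreatic duct origin differed widely in level. KRT8 and KRT18, keratins of simple epithelium, lay between 120 and 205 FPKM in all samples. SOX9 averaged 43.1 FPKM in si-NC and 35.8 FPKM in si-METTL16 cells, and KRT7 averaged 0.949 and 0.522 FPKM. KRT19 averaged 44.8 FPKM in si-NC and 16.7 FPKM in si-METTL16 cells (log2 fold change -1.40). Of 4 fibroblast and stellate markers, PDGFRB and ACTA2 stayed under 0.1 FPKM, while COL1A1 averaged 26.4 FPKM in si-NC and 62.5 FPKM in si-METTL16 cells and COL3A1 0.966 and 1.53 FPKM. Their summed level was 25.9 to 30.0 FPKM in si-NC and 62.4 to 66.1 FPKM in si-METTL16 samples, moving with AXL, and its part in the AXL result was not tested. The 3 endothelial markers stayed under 0.1 FPKM, as did 3 of 4 acinar markers, GCG and CHGA of the 3 endocrine markers, and PTPRC and CD3E of the 3 leukocyte markers. The remaining leukocyte marker, CD68, averaged 1.18 FPKM in si-NC and 1.85 FPKM in si-METTL16 cells.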

How the data were processed

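RNA-seq data of 6 PANC-1 samples were used. Groups and replicate numbers came from the sample titles. Per the labels, libraries were made with a SMARTER mRNA-Seq kit from RNA extracted with an Ultrapure RNA kit, whereas the design text names TRIzol. The submitters' processing notes name HISAT2 2.0.4, StringTie 1.3.0 and GRCh38, and the annotation release and use of strand are not given in the sources used here. The authors deposited raw counts per gene, which sum to between 15725298 and 18054436 per sample. The authors also deposited FPKM, the counts scaled by gene length and total count. At these depths 3 counts equal 0.166 to 0.191 CPM. The precision of high receptors is limited by 3 replicates per group and that of low ones (ERBB3, FGFR4, INSR, MST1R) also by counting error. No 2 samples agreed within sampling noise.

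Counts were TMM-scaled and filtered with filterByExpr (minimum count 10, minimum total 15), leaving 15089 genes, and the groups were compared in R 4.3.3 by the quasi-likelihood F test of edgeR 4.0.16 (glmQLFit, glmQLFTest). P-values were adjusted over all of these genes by Benjamini-Hochberg, and 0.05 was the threshold. Each standard error was derived from a gene's fold change and F value. Per-sample ratios of FPKM were compared with two-sided exact permutation tests (scipy 1.17.1) over 6 pairs. Log2 CPM used a prior count of 2. Transcripts and 3′ UTRs were those of GENCODE v44, in which 5 of the 10 receptors have the same start and end as in the table; promoter windows were from RefSeq (GRCh38.p14). The supplementary list of the study supplied the siRNA sequences only.

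The receptors and the gene lists were chosen with earlier results of these data known. Named genes were the 10 receptors, METTL16 and, from each other list, called genes at or beyond 1 in absolute log2 fold change, the 2 highest and 2 lowest called, and ligands of the receptors with a mean of at least 1 FPKM. Exceptions are said beside their values, and 1 marker gene is not reported here. IGF2 had a duplicate entry at 0 in all samples, which was left out.

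Alternatives were a block for the replicate number, leaving out each sample, testing all genes or those with 10 or more counts throughout, RLE scaling, DESeq2 1.42.0 (Wald test), limma 3.58.1 with voom, limma on log2(FPKM + 1) or log2(FPKM + 0.1) for genes averaging 1 FPKM or more, and an adjusted p under 0.01. Scripts were tested on simulated data.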

Additional observations from a re-analysis of the deposited data

How the results depend on the processing

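AXL and ERBB2 kept direction and call under all 15 alternatives, with log2 fold changes of 0.54 to 0.66 and of -0.74 to -0.54. MET kept its call under 14 (adjusted p from 0.0030 to 0.047) and lost it at the threshold of 0.01 (0.37, adjusted p = 0.012). FGFR4 was called by DESeq2 (-0.74, adjusted p = 0.049), without si-NC replicate 1 and without si-METTL16 replicate 3. Leaving out each sample moved FGFR4 between -0.92 and -0.59 and EGFR between -0.0035 and 0.25, the lower EGFR value arising without si-METTL16 replicate 1. At an adjusted p under 0.01, 3035 genes were called in place of 5418, with 2 receptors, 7 other receptor tyrosine kinases in place of 13, 7 ligand-binding partners in place of 11 and 2 negative regulators in place of 5. The limma fits on FPKM, which tested 14 other receptor tyrosine kinases, called 8 of them, and the one at a pseudocount of 0.1 called 5 adaptors in place of 9. Leaving out a sample gave 4159 to 4526 genes, fewer samples being fitted, 3 or 4 of the 10 receptors and, without si-NC replicate 2, 8 other receptor tyrosine kinases. GAS6, near 0 throughout, ranged from -0.0276 to 0.0491 when a sample was left out and was -0.0098 and -0.0137 with limma on FPKM at pseudocounts of 1 and 0.1. NRG1 ranged from -0.0295 to 0.573 and was lowest without si-NC replicate 2. The limma fits on FPKM gave no value for MST1R, FGFR4, INSR and ERBB3, which lie under a mean of 1 FPKM. Ratio differences kept their direction under all 9 alternatives run for each pair. The length used changes the order of ERBB2, FGFR1 and IGF1R, an alternative chosen after seeing the data.

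With the replicate number as a block, FGFR4 was called (-0.72, adjusted p = 0.035), 4 receptors and 5013 genes passed, and none of the other 9 receptors of the group changed its call: AXL was at 0.62 (adjusted p = 0.0030), MET at 0.37 (adjusted p = 0.036) and ERBB2 at -0.68 (adjusted p = 0.0078). Of the named ligands and other receptors, IGF2 was then called lower (-0.83, adjusted p = 0.0495), TGFA (0.54, adjusted p = 0.057) and EPHA10 (-0.81, adjusted p = 0.087) were not, and the 3 ligands called were 2 higher and 1 lower. The titles give only a number for each replicate, and whether it marks a pairing was not given in the sources used here. Deviations of same-numbered samples correlated at 0.03, 0.04 and 0.03 across genes, which cannot show whether some genes vary by replicate number. EGFR and ERBB3 fell from replicate 1 to replicate 3 in both groups, and the block lowered the SE of EGFR from 0.14 to 0.08.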
